A study of Mus musculus with 50 samples.

Results

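The mitochondrial respiratory chain genes examined here carry the symbols of nuclear subunits of complexes I to IV or of their relatives. They were taken by symbol from the array's probe-to-gene table: names that begin with Nduf and a letter from a, b, c, s or v followed by a digit, the succinate dehydrogenase genes Sdha to Sdhd, names that begin with Uqcr, and the Cox subunit families numbered 4 to 8 with a letter from a to c. This gave 65 of the 19494 genes with a named probe set, of which 37 belong to complex I by name, 4 to complex II, 8 to complex III and 16 to complex IV, and none of the 65 had several probe sets. The rule does not take Ndufab1, Cyc1, Cox4i1 or the subunits encoded in mitochondrial DNA. Ndufa4 is counted with complex I by its name although its protein is known as a subunit of complex IV. Its relative Ndufa4l2 is counted with complex I, and Cox7a2l, a factor of supercomplex assembly, with complex IV, also by name alone. Ndufb4 and Ndufb4b are close copies whose signals may not be separable.

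The chain sits in the inner mitochondrial membrane, where complex I (NADH dehydrogenase) and complex II (succinate dehydrogenase) pass electrons to ubiquinone, complex III passes them on to cytochrome c, and complex IV (cytochrome c oxidase) gives them to oxygen. The proton gradient that complexes I, III and IV build drives ATP synthase. Mature colon epithelial cells are known to burn butyrate in their mitochondria, so the chain is prominent in that cell layer.

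The study profiled 50 samples of bulk mouse colon, 1 array each, with 5 samples in each of 10 groups. The sample descriptions give an age of 11 weeks, while another label gives age ranges that differ from sample to sample. In arrays with title numbers 86-124 the groups were CASP8 IEC-KO, FADD IEC-KO RIPK3 IEC-KO, FADD IEC-KO and, as floxed control, Casp8 fl/fl. In arrays numbered 1-30 they were CASP8 IEC-KO with Mlkl -/-, CASP8 IEC-KO alone, FADD IEC-KO with Zbp1 -/-, FADD IEC-KO with Mlkl -/-, FADD IEC-KO alone and, as floxed control, Fadd fl/fl. FADD, an adaptor of death receptors, and CASP8, the protease it activates, restrain necroptosis, a lytic cell death carried out by RIPK3 and MLKL that ZBP1 can trigger. IEC-KO means that a gene was deleted in intestinal epithelial cells (no label used here names the Cre driver), while Zbp1 -/- and Mlkl -/- name deletions that are not limited to that cell type. The tissue also held muscle, stromal and immune cells that kept Fadd and Casp8. No label used here says what the 2 number series stand for. Each series holds the floxed control of 1 gene only, so within their own series FADD IEC-KO (86-124) and CASP8 IEC-KO (1-30) could be set only against controls with the other gene floxed.

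Fadd, Casp8 and Mlkl lay below the floxed controls in the groups whose labels name their deletion. Zbp1 and Ripk3 lay below FADD IEC-KO there but near the floxed controls. Fadd averaged a log2 signal of 6.14 to 6.39 in the 5 groups with FADD IEC-KO, against 7.30 ± 0.13 in Casp8 fl/fl and 7.38 ± 0.18 in Fadd fl/fl (SD, n = 5 each). Casp8 averaged 8.98 to 9.14 in the 3 CASP8 IEC-KO groups, against 10.50 ± 0.15 in Casp8 fl/fl and 10.32 ± 0.22 in Fadd fl/fl. Zbp1 averaged 5.49 in FADD IEC-KO Zbp1 -/-, against 7.29 in FADD IEC-KO (1-30) and 5.68 in Fadd fl/fl. Ripk3 averaged 6.68 in FADD IEC-KO RIPK3 IEC-KO, against 8.09 in FADD IEC-KO (86-124) and 6.60 in Casp8 fl/fl. Mlkl averaged 7.17 and 7.31 in the Mlkl -/- groups, against 9.12 and 8.60 in the single deletions they were compared with and 8.25 in Fadd fl/fl. Whether these probe sets cover the removed exons was not checked here. All 8 colonocyte markers examined averaged a log2 signal of at least 10.32 over the 50 arrays, whose medians lay between 6.41 and 6.47, and the 14 smooth muscle markers averaged 6.81 to 12.21, so the tissue held epithelium and muscle wall. In FADD IEC-KO (1-30), replicates 22 and 23 stood apart, with neutrophil markers 3.69 and 2.53 log2 units above the mean of the 10 floxed arrays. In FADD IEC-KO (86-124), replicates 117 and 124 stood apart, with neutrophil markers 3.19 and 1.84 log2 units above it.

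In the FADD IEC-KO colons of arrays 1-30, 14 of the 65 chain genes were higher than in Fadd fl/fl and none was lower past the threshold (limma, Benjamini-Hochberg adjusted p under 0.05 over all genes), which is 21.5% of the members, beside 8.59% of all genes that rose and 10.1% that fell. The changes were small. The median difference over the 65 members was a log2 difference of 0.09, beside -0.02 over all genes, and 52 members lay above 0. Complex I held 10 of the 14 genes that rose (of 37, median log2 difference 0.12), complex III 1 of 8 (0.13), complex IV 3 of 16 (0.03) and complex II none of 4 (0.08). At an unadjusted p under 0.05, limma gave 24 members above and 1 below, beside 30.9% of all genes. Since the arrays measured bulk tissue, fewer cells of a type and less RNA per cell cannot be told apart in these or any later differences.

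**Figure D1:**
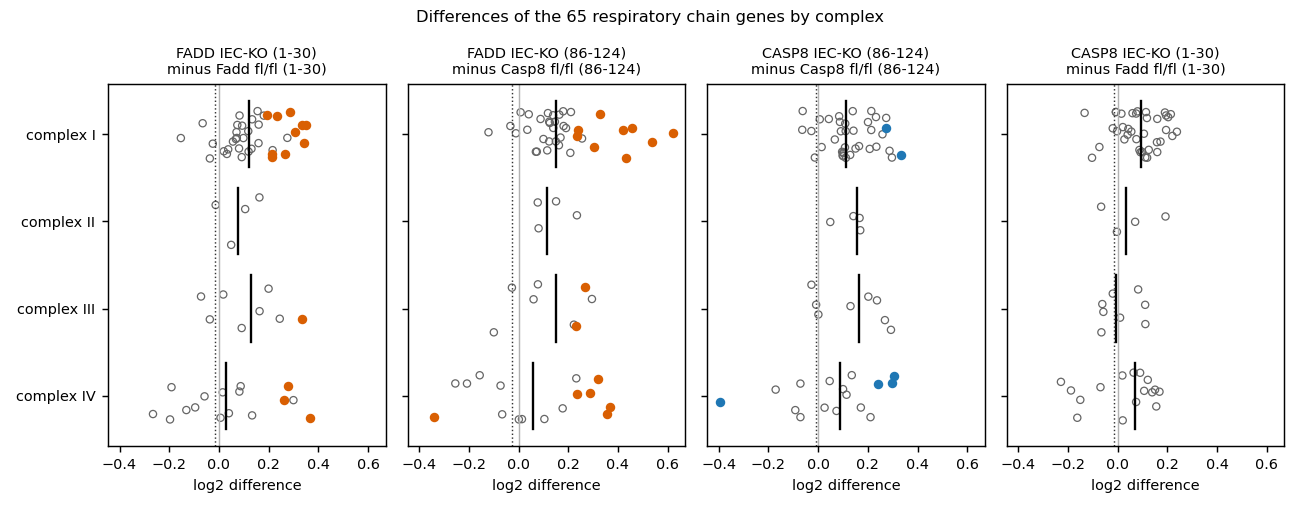
Log2 difference (x axis) of each of the 65 chain genes, arranged by complex (y axis), in 4 comparisons of knockout minus floxed colons. Filled points passed an adjusted p of 0.05 in limma, open points did not; short black bars mark the median of each complex and the dotted line the median of all 19494 genes. FADD IEC-KO shows 14 filled points in arrays 1-30 and 17 in arrays 86-124, CASP8 IEC-KO shows 6 in arrays 86-124 and none in arrays 1-30.

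Cox7a2, the complex IV subunit form found in most tissues, had log2 signals of 9.88, 9.88, 9.86, 9.84 and 10.01 in FADD IEC-KO (1-30), against 9.53, 9.32, 9.56, 9.71 and 9.51 in Fadd fl/fl. All 5 knockout arrays lay above all 5 floxed arrays. The log2 difference was 0.37 ± 0.09 (SE), or 1.29-fold, with an adjusted p of 0.00358 in limma. Cox5a, a nuclear subunit of the cytochrome c oxidase core region, had log2 signals of 10.28, 10.22, 10.36, 10.25 and 10.44 in FADD IEC-KO (1-30), against 10.09, 9.99, 10.04, 9.99 and 10.07 in Fadd fl/fl. The groups again did not overlap, and the log2 difference of 0.28 ± 0.06 (SE) had an adjusted p of 0.00199 in limma. Cox7b, a small complex IV subunit, rose by a log2 difference of 0.26 (adjusted p = 0.00334, limma), also without overlap.

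Among complex I genes, Ndufs8, a core subunit that carries iron-sulfur clusters of the arm facing the matrix, had log2 signals of 9.40, 9.49, 9.74, 9.60 and 9.55 in FADD IEC-KO (1-30), against 9.18, 9.11, 9.21, 9.34 and 9.23 in Fadd fl/fl. Every knockout array was above every floxed array, and the log2 difference was 0.34 ± 0.08 (SE; adjusted p = 0.0025, limma). Ndufa10, an accessory subunit, had log2 signals of 9.34, 9.56, 9.74, 9.68 and 9.64 in FADD IEC-KO (1-30), against 9.26, 8.99, 9.30, 9.50 and 9.18 in Fadd fl/fl. Here the groups overlapped through 1 low knockout array and 1 high floxed array, and the log2 difference was 0.35 ± 0.09 (SE; adjusted p = 0.00565, limma). Ndufa12, an accessory subunit that sits near the core subunits of the matrix arm, had log2 signals of 9.67, 9.72, 9.78, 9.79 and 9.67 in FADD IEC-KO (1-30), against 9.45, 9.53, 9.41, 9.47 and 9.57 in Fadd fl/fl. No knockout array fell within the floxed range, and the SD was 0.06 in both (log2 difference 0.24, adjusted p = 0.00206, limma).

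A set of 4 accessory subunits of the complex I membrane arm rose as well: Ndufb8 by a log2 difference of 0.33 (adjusted p = 0.00572), Ndufb10 by 0.30 (adjusted p = 0.0152), Ndufb6 by 0.29 (adjusted p = 0.00593) and Ndufb7 by 0.26 (adjusted p = 0.0301; limma). The groups did not overlap for Ndufb8, Ndufb10 and Ndufb6 and did for Ndufb7. The remaining complex I genes past the threshold were core subunits: Ndufs3 by 0.21 (adjusted p = 0.03), Ndufv2, an iron-sulfur subunit, by 0.21 (adjusted p = 0.0355), and Ndufv1, which binds the flavin that accepts electrons from NADH, by 0.19 (adjusted p = 0.0242). Ndufs1, the largest core iron-sulfur subunit, had a log2 difference of -0.04 that did not pass (adjusted p = 0.841). The lowest value of complex I was that of Ndufb3, another membrane arm subunit, with a log2 difference of -0.15 (adjusted p = 0.294).

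In complex III, Uqcrq, a small subunit near the ubiquinone sites, had log2 signals of 9.39, 9.56, 9.50, 9.35 and 9.61 in FADD IEC-KO (1-30), against 9.29, 9.09, 9.19, 9.18 and 8.99 in Fadd fl/fl. All knockout arrays were above all floxed arrays, and the log2 difference was 0.33 ± 0.09 (SE; adjusted p = 0.00676, limma). The core protein Uqcrc1, with a log2 difference of 0.20 (adjusted p = 0.0669), the Rieske iron-sulfur protein Uqcrfs1, with 0.09 (adjusted p = 0.448), and Uqcrh, the hinge protein that contacts cytochrome c1, with -0.07 (adjusted p = 0.6), did not pass. In complex II no gene passed: the log2 differences were 0.05 for the flavoprotein Sdha (adjusted p = 0.787), 0.16 for the iron-sulfur protein Sdhb (0.109), and 0.11 and -0.01 for the membrane anchors Sdhd (0.304) and Sdhc (0.945).

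Over the 65 members, 10 had all FADD IEC-KO (1-30) arrays above all Fadd fl/fl arrays and none the reverse, where 4.23% of all genes lay above and 4.97% below without overlap. Of the 14 calls, 9 held in each of the 10 refits that left out 1 array, those of Cox5a, Cox7a2, Cox7b, Ndufs8, Ndufb6, Ndufb8, Ndufa10, Ndufa12 and Uqcrq. Other cell types moved with this comparison. All 14 smooth muscle markers fell (median log2 difference -1.16; array medians from -1.66 to -0.22 in FADD IEC-KO (1-30), against -0.07 to 0.11 in Fadd fl/fl), and 7 of 8 neutrophil markers (array medians 0.16 to 3.69 in FADD IEC-KO (1-30), against -0.10 to 0.18 in Fadd fl/fl) and all 7 macrophage markers rose. Colonocyte markers were mixed, with 2 of 8 higher and 2 lower, 4 of 5 T cell markers rose, and 2 of 5 fibroblast and 1 of 5 endothelium markers fell. Their part in the chain genes' differences was not tested. Without replicates 22 and 23, 6 members passed, and a fit to only the 10 arrays compared gave 5.

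In the second series, FADD IEC-KO (86-124) against Casp8 fl/fl, 16 members rose and 1 fell, or 24.6% and 1.54% of the 65, beside 6.80% and 4.25% of all genes. The median log2 difference of the members was 0.15, beside -0.03 over all genes, 54 members lay above 0, and 15 had all knockout arrays above all floxed arrays, beside 4.51% of all genes. Complex I held 9 of the genes that rose (median log2 difference 0.15), complex III 2 (0.15), complex IV 5 (0.06), and complex II none (0.12). The controls here carry floxed Casp8, not floxed Fadd, and their mean signal lay below that of Fadd fl/fl for 48 of the 65 members, none past the threshold.

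Ndufs7, the core subunit with the last iron-sulfur cluster before ubiquinone, had the largest log2 difference of all members in any comparison of knockout with floxed colons. Its log2 signals were 8.96, 8.93, 8.81, 9.25 and 9.06 in FADD IEC-KO (86-124), against 8.52, 8.19, 8.38, 8.43 and 8.41 in Casp8 fl/fl. The groups stood well apart, with a log2 difference of 0.62 ± 0.10 (SE), or 1.54-fold, and an adjusted p of 3.11e-05 in limma. In arrays 1-30 the same gene had log2 signals of 8.72, 8.64, 8.88, 8.79 and 8.77 in FADD IEC-KO, against 8.63, 8.53, 8.53, 9.04 and 8.91 in Fadd fl/fl, fully overlapping, with a log2 difference of 0.03 (adjusted p = 0.863). The difference between those differences was a log2 value of 0.59 and did not pass (adjusted p = 0.0527, limma). Over the 10 groups the mean log2 signal of Ndufs7 was highest in FADD IEC-KO (86-124), at 9.00, and lowest in Casp8 fl/fl, at 8.38, with Fadd fl/fl at 8.73.

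The other large differences in complex I were in accessory subunits. Ndufv3, of the NADH-oxidising module, had log2 signals of 6.63, 6.61, 6.57, 6.76 and 6.45 in FADD IEC-KO (86-124), against 5.91, 6.02, 6.22, 6.27 and 5.90 in Casp8 fl/fl. No array overlapped, and the log2 difference was 0.54 ± 0.12 (SE; adjusted p = 0.00297, limma). Ndufa8, which lies on the side of the intermembrane space, had log2 signals of 9.81, 9.78, 9.52, 9.93 and 9.41 in FADD IEC-KO (86-124), against 9.34, 9.03, 9.44, 8.99 and 9.36 in Casp8 fl/fl. Replicate 124 of the knockout lay below 1 floxed array, and the log2 difference was 0.46 ± 0.10 (SE; adjusted p = 0.00197, limma). The membrane arm subunits Ndufa3 and Ndufa11 rose by log2 differences of 0.43 (adjusted p = 0.00503) and 0.42 (adjusted p = 0.00122), both without overlap, and Ndufa9 rose by 0.24 (adjusted p = 0.026) with overlap.

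In complex IV, Cox6a1, the form of this regulatory subunit found in most tissues, had log2 signals of 11.26, 11.40, 11.35, 11.54 and 11.29 in FADD IEC-KO (86-124), against 10.99, 10.93, 11.06, 11.11 and 10.91 in Casp8 fl/fl. The groups did not overlap, and the log2 difference was 0.37 ± 0.07 (SE; adjusted p = 7e-04, limma). Cox8a had log2 signals of 11.25, 11.35, 11.30, 11.52 and 11.22 in FADD IEC-KO (86-124), against 11.09, 11.00, 11.09, 11.10 and 10.57 in Casp8 fl/fl. Again no array overlapped, but replicate 119 of the floxed control stood far below its group, and without it the log2 difference was 0.26 in place of 0.36 and still passed (adjusted p = 0.0217, limma). Cox6b1, which bridges the complex IV dimer, rose by 0.32 (adjusted p = 0.00973) and Cox5b, the zinc-binding subunit, by 0.29 (adjusted p = 0.00208), neither with overlap. Cox7b2, a little-expressed relative of Cox7b, was the only member that fell: it had log2 signals of 3.04, 3.04, 3.01, 3.22 and 3.25 in FADD IEC-KO (86-124), against 3.22, 3.84, 3.45, 3.48 and 3.26 in Casp8 fl/fl (log2 difference -0.34, adjusted p = 0.0301, limma). These signals lie far below the array medians, and no detection calls were given.

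In complex III, Uqcrc1 rose by a log2 difference of 0.27 (adjusted p = 0.0209) and the small subunit Uqcr10 by 0.23 (adjusted p = 0.0418; limma), both with overlap. Uqcr11, another small subunit, did not overlap between FADD IEC-KO (86-124) and Casp8 fl/fl, and its log2 difference of 0.30 did not pass (adjusted p = 0.0541). Complex II again had no gene past the threshold. Its log2 differences were 0.08 for Sdha, 0.08 for Sdhb, 0.23 for Sdhc (adjusted p = 0.0813) and 0.15 for Sdhd (adjusted p = 0.147), and only Sdhd had groups that did not overlap. Marker lists moved here too: 6 of 14 smooth muscle markers fell (median log2 difference -0.59; array medians -1.86 to 0.01 in FADD IEC-KO (86-124), against -0.13 to 0.06 in Casp8 fl/fl), 1 of 8 neutrophil markers (array medians -0.05 to 3.19 in FADD IEC-KO (86-124), against -0.14 to 0.11 in Casp8 fl/fl) and all 7 macrophage markers rose. Of the other lists, 2 of 8 colonocyte and 1 of 5 T cell markers rose, and 2 of 5 fibroblast and 1 of 5 endothelium markers fell. Their part in the result was not tested. Without replicates 117 and 124, an alternative chosen after seeing the data, 13 members passed, and a fit to only the 10 arrays compared gave 5. With Fadd fl/fl as the control in place of Casp8 fl/fl, also chosen after seeing the data, 3 passed, beside 2.63% of all genes that rose and 2.84% that fell: Cox5a rose by a log2 difference of 0.21 and Ndufa12 by 0.20, and Cox7a2l, a factor of supercomplex assembly, fell by 0.28 on the log2 scale. Ndufs7 then had a log2 difference of 0.28 (adjusted p = 0.073, limma).

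The FADD comparisons of the 2 series share no arrays. In both, 4 members rose: Ndufs8, Ndufb6, Ndufb10 and Cox5a, which is 28.6% of the 14 that rose in arrays 1-30 and 25% of the 16 in arrays 86-124, beside 37% and 46.8% for all 620 genes that rose in both. With Fadd fl/fl as the control of FADD IEC-KO (86-124), only Cox5a of these 4 passed (adjusted p = 0.0433, limma). Ndufs8 then had a log2 difference of 0.20 (adjusted p = 0.133), Ndufb6 0.17 (adjusted p = 0.181) and Ndufb10 0.14 (adjusted p = 0.384), all with overlap. By direction alone, each series against its own floxed control, 49 members lay above 0 in both, 8 below 0 in both and 8 on opposite sides. Of all 19494 genes, 9140 lay above 0 in arrays 1-30 and 8773 in arrays 86-124. How many of all genes shared a direction was not counted, so the 49 members have no baseline. Ndufb6 had log2 signals of 9.09, 8.86, 8.89, 8.97 and 9.07 in FADD IEC-KO (1-30), against 8.85, 8.71, 8.52, 8.78 and 8.59 in Fadd fl/fl. In the other series it had 8.83, 8.84, 8.81, 8.88 and 8.92 in FADD IEC-KO (86-124), against 8.61, 8.44, 8.64, 8.63 and 8.77 in Casp8 fl/fl, so that both comparisons were free of overlap (log2 difference 0.24, adjusted p = 0.0337 in the second, limma).

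Ndufb10, likewise of the membrane arm, had log2 signals of 7.70, 7.67, 7.61, 7.39 and 7.54 in FADD IEC-KO (1-30), against 7.39, 7.14, 7.23, 7.26 and 7.39 in Fadd fl/fl. It had 7.53, 7.31, 7.40, 7.58 and 7.30 in FADD IEC-KO (86-124), against 7.26, 7.12, 7.02, 7.10 and 6.97 in Casp8 fl/fl. The knockout arrays lay above the floxed arrays in both, by log2 differences of 0.30 and 0.33 (adjusted p = 0.0149 in the second, limma). Ndufs8 in arrays 86-124 had log2 signals of 9.53, 9.36, 9.49, 9.46 and 9.21 in FADD IEC-KO, against 9.17, 8.94, 9.16, 9.12 and 9.17 in Casp8 fl/fl, again without overlap (log2 difference 0.30, adjusted p = 0.0118). Cox5a had 10.21, 10.00, 10.36, 10.34 and 10.30 in FADD IEC-KO (86-124), against 10.05, 9.94, 9.99, 10.14 and 9.91 in Casp8 fl/fl. Replicate 95 of the knockout lay within the floxed range, the log2 difference was 0.24 (adjusted p = 0.012, limma), and without replicate 117 it no longer passed (adjusted p = 0.0518).

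**Figure D2:**
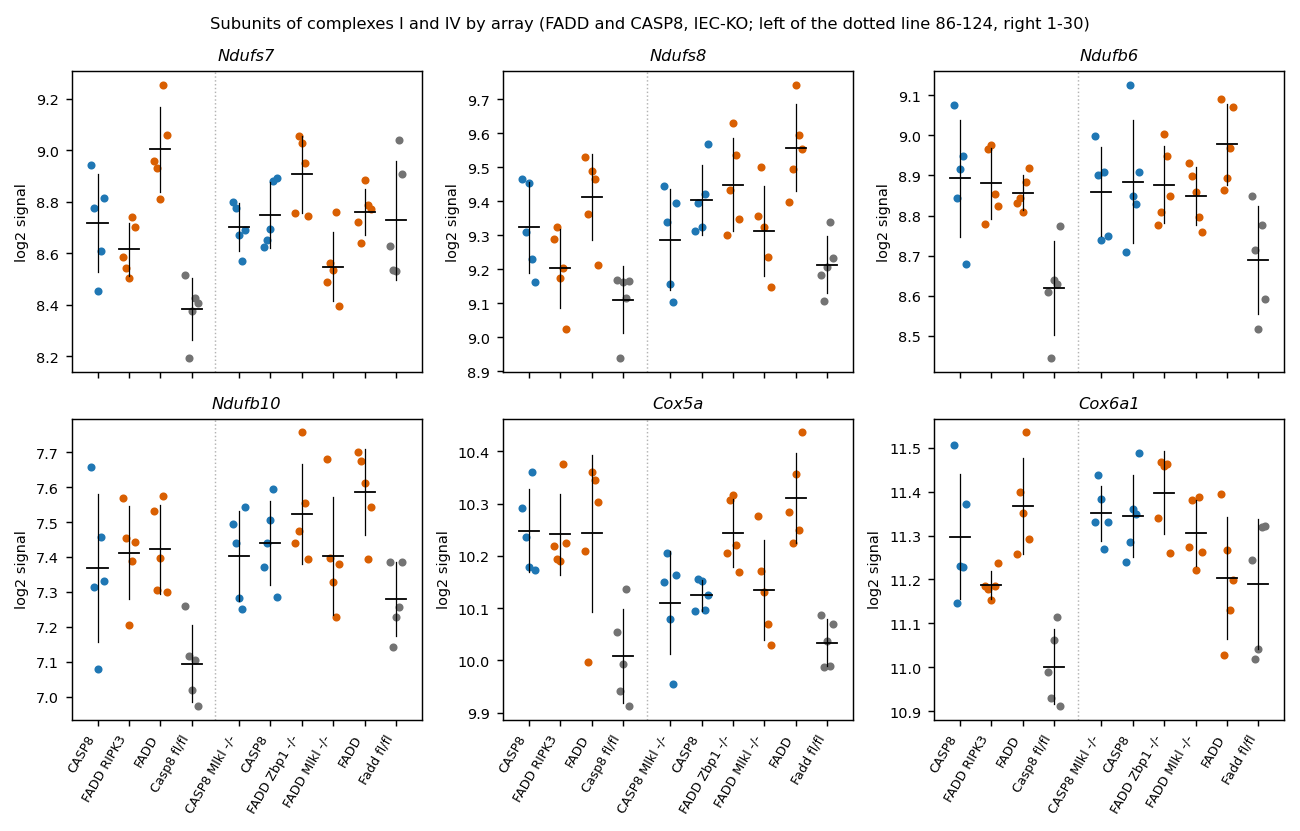
Log2 signal (y axis) of 6 chain genes on every array, by group (x axis), with horizontal bars at group means and vertical bars of 1 SD (n = 5 each). Orange marks groups with FADD IEC-KO, blue CASP8 IEC-KO and grey the floxed controls; axes do not start at 0. Ndufs7 and Cox6a1 are lowest in Casp8 fl/fl and overlap between FADD IEC-KO and Fadd fl/fl in arrays 1-30, while Ndufs8, Ndufb6 and Ndufb10 lie above the floxed arrays in FADD IEC-KO of both series.

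The promoters of these 4 genes, and of Ndufs7 and Cox6a1, the members of complexes I and IV with the largest differences in arrays 86-124, are printed to show which of them carry short motifs known from nuclear genes of the respiratory chain. Each window runs from 250 bases before to 50 after a start annotated for the gene (RefSeq, GRCm38.p6), on the gene's strand, 5′ to 3′. For Cox5a and Ndufs7 that start is not the first base of the gene (chr9:57517328 and chr10:80249105). Their windows lie wholly downstream of it, inside the gene. Capitals mark matches, on either strand, to CCGGAAG (the ETS family core), GCGC, any base and TGCGC in a row (nuclear respiratory factor NRF1, which can match on both strands at 1 site) and AANATGGCG (YY1).
Ndufs8 (chr19:3912725-3913024, minus strand): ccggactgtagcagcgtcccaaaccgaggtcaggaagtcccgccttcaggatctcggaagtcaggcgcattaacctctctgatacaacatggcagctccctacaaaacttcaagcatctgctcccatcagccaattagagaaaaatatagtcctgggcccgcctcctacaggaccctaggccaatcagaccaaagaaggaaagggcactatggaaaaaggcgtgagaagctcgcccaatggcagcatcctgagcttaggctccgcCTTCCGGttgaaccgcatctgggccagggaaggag
Ndufb6 (chr4:40279372-40279671, minus strand): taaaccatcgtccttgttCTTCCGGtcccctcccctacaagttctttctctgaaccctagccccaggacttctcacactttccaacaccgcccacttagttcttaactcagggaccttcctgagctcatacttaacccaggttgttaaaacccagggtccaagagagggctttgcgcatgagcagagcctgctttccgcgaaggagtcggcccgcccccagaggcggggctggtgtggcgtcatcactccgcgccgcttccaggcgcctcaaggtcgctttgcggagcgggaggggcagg
Ndufb10 (chr17:24724374-24724673, minus strand): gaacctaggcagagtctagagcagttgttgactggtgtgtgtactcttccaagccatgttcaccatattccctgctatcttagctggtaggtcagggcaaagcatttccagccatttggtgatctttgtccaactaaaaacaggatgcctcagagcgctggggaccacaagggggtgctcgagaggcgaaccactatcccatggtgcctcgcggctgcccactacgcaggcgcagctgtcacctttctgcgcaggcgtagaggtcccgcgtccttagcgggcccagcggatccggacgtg
Cox5a (chr9:57520982-57521281, plus strand): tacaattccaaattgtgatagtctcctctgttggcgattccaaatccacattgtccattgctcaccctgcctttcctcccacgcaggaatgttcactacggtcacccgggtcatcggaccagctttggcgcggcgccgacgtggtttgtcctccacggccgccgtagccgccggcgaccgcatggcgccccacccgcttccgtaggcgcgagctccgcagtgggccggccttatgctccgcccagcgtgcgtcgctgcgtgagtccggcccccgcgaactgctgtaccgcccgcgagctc
Ndufs7 (chr10:80249199-80249498, plus strand): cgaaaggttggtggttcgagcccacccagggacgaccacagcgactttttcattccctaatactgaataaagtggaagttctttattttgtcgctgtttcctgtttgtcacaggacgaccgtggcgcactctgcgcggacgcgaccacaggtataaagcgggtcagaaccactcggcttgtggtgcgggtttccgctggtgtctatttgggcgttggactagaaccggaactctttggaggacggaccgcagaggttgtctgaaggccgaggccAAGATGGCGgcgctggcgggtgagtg
Cox6a1 (chr5:115348909-115349208, minus strand): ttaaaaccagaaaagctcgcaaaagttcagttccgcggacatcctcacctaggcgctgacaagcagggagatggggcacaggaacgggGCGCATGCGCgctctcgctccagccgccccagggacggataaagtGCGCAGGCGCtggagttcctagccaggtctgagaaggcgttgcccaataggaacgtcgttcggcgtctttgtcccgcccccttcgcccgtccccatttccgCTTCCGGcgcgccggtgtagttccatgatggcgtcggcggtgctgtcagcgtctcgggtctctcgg
Ndufs8 and Ndufb6 each held 1 ETS match, Ndufs7 held 1 YY1 match near the end of its window, and Cox6a1 held 1 ETS match and NRF1 matches at 2 sites. The windows of Ndufb10 and Cox5a held none of the 3 motifs, which says only that these letters are not in this window. For Cox5a the sequence before the first base of the gene was not searched.

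A window was found for 54 of the 65 members. At least 1 of the motifs stood in 25 of them, or 46.3%, beside 14.7% of all 27025 windows in the table and 19.4% of the 17491 windows of protein-coding genes. ETS matches stood in 20.4% of the members' windows, beside 9.1% of all windows and 11.9% of those of protein-coding genes. NRF1 matches stood in 20.4%, beside 4.8% and 6.6%, and YY1 matches in 11.1%, beside 2.5% and 3.3%, in that order. In FADD IEC-KO (1-30) the 25 members with a motif had a median log2 difference of 0.11 and the 29 without had 0.13, and in FADD IEC-KO (86-124) the medians were 0.18 and 0.16. A match is a run of letters and not a site shown to be bound.

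In CASP8 IEC-KO (86-124) against Casp8 fl/fl, 5 members rose and 1 fell, or 7.69% and 1.54%, beside 1.80% and 0.662% of all genes. The median log2 difference was 0.11, beside -0.01 over all genes, with 54 members above 0, and 4 members had all knockout arrays above all floxed arrays, beside 1.68% of all genes. This comparison shares its 5 Casp8 fl/fl arrays with that of FADD IEC-KO (86-124). Cox5a had log2 signals of 10.29, 10.24, 10.18, 10.36 and 10.17 in CASP8 IEC-KO (86-124), against 10.05, 9.94, 9.99, 10.14 and 9.91 in Casp8 fl/fl. The groups did not overlap (log2 difference 0.24, adjusted p = 0.0322, limma).

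Cox6a1 had log2 signals of 11.51, 11.15, 11.23, 11.23 and 11.37 in CASP8 IEC-KO (86-124), against 10.99, 10.93, 11.06, 11.11 and 10.91 in Casp8 fl/fl, also without overlap (log2 difference 0.30, adjusted p = 0.0227, limma). Ndufs7 had 8.94, 8.78, 8.45, 8.61 and 8.81 in CASP8 IEC-KO (86-124), against 8.52, 8.19, 8.38, 8.43 and 8.41 in Casp8 fl/fl, with overlap (log2 difference 0.34, adjusted p = 0.0437). Cox8a, by a log2 difference of 0.31 (adjusted p = 0.0317), and Ndufb6, by 0.27 (adjusted p = 0.0387), rose with overlap, and Cox7b2 fell (log2 difference -0.40, adjusted p = 0.0339). Each of these 6 calls was lost when 1 or more single arrays were left out. Without Casp8 fl/fl replicate 119, whose Cox8a signal stood far below its group, the log2 difference of Cox8a was 0.21 (adjusted p = 0.139, limma). Without CASP8 IEC-KO replicate 87 none of the 65 passed, and without replicate 108 there were 11. No smooth muscle marker passed, although all 14 lay below 0 (median log2 difference -0.35), and array medians of that list ran from -0.71 to -0.12 in CASP8 IEC-KO (86-124), against -0.13 to 0.06 in Casp8 fl/fl. Of the other marker lists, 2 of 5 fibroblast markers (median log2 difference -0.54) and 2 of 5 endothelium markers (-0.40) fell and 1 of 8 colonocyte markers rose, and their part in the result was not tested. With Fadd fl/fl as the control limma called none of the 65, beside 0.385% of all genes, and at an unadjusted p under 0.05 it called 8 of 65, beside 15.7% of all genes. Ndufs7 then had a log2 difference of -0.0092 (adjusted p = 0.976).

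In CASP8 IEC-KO (1-30) against Fadd fl/fl, a comparison that shares its control arrays with that of FADD IEC-KO (1-30), limma called none of the 65, beside 0.123% of all genes, or 24. At an unadjusted p under 0.05 there were 10 members above and 1 below, beside 11.7% of all genes. The median log2 difference was 0.08, beside -0.01 over all genes, and 47 members lay above 0. The lowest adjusted p among the members named here was that of Ndufa12, with log2 signals of 9.72, 9.72, 9.64, 9.78 and 9.68 in CASP8 IEC-KO (1-30), against 9.45, 9.53, 9.41, 9.47 and 9.57 in Fadd fl/fl. Each CASP8 IEC-KO array was above each floxed array, and the log2 difference was 0.22 (adjusted p = 0.0752). Ndufs4, an accessory subunit whose loss in humans is known from Leigh syndrome, had a log2 difference of 0.24 (adjusted p = 0.229), the highest of the members, and Cox8c had the lowest, -0.23 (adjusted p = 0.371).

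The responses to the 2 deletions were also compared directly. CASP8 IEC-KO minus FADD IEC-KO, averaged over both series, gave no member past the threshold in limma, beside 5.13% of all genes. At an unadjusted p under 0.05 there were 1 above and 9 below of the 65, beside 20.3% of all genes. The median log2 difference was -0.04, beside 0.0086 over all genes. Of the 65 members 48 lay below 0, 31 of them among the 37 of complex I, beside 9213 of all 19494 genes. Neither the difference of the FADD IEC-KO effect between the series (0.123% of all genes) nor that of the CASP8 IEC-KO effect (0.00513%) had a member past the threshold in limma. At an unadjusted p under 0.05 these gave 9 of 65 members, beside 10.7% of all genes, and 5 of 65, beside 7.95%. FADD IEC-KO (86-124) minus FADD IEC-KO (1-30) also had none (0.390% of all genes; limma), with 10 of 65 members at an unadjusted p under 0.05, beside 13.5% of all genes.

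The floxed controls were also set against each other. The mean of Casp8 fl/fl lay below that of Fadd fl/fl for 48 of the 65 members, with a median log2 difference of -0.06, beside -0.0037 over all genes, and no member passed in limma, beside 0.0359% of all genes. At an unadjusted p under 0.05 there were 1 above and 9 below of the 65, beside 10.1% of all genes. The log2 differences of Casp8 fl/fl minus Fadd fl/fl were -0.35 for Ndufv3, -0.34 for Ndufs7, -0.30 for Ndufa8, -0.27 for Ndufa11, -0.24 for Cox8a and -0.19 for Cox6a1. The genotype of the floxed allele and the number series cannot be told apart in this comparison. Replicate 91 of Casp8 fl/fl was the lowest array of all, with 8 of the 65 members above the mean of the 10 floxed arrays.

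**Figure D3:**
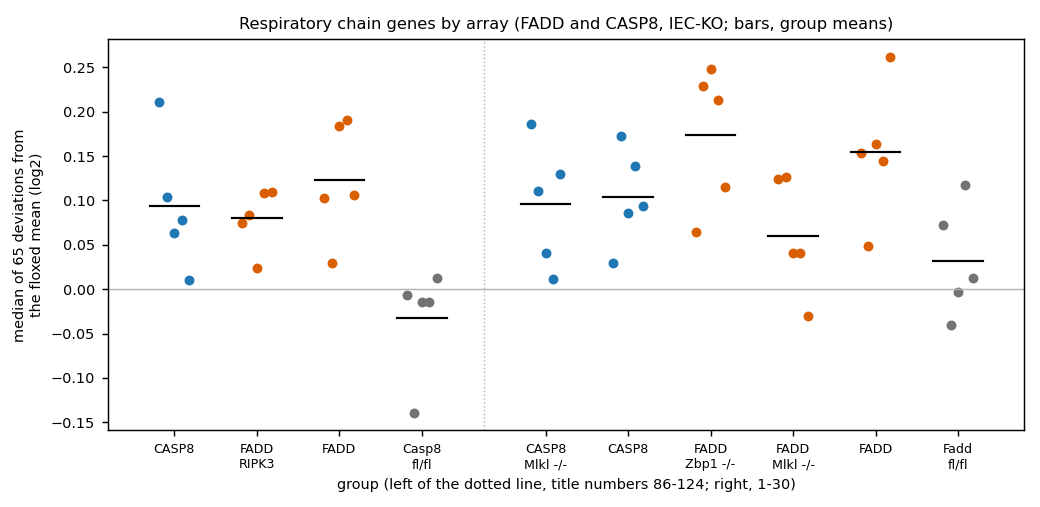
Median over the 65 chain genes of each array's deviation from the mean of the 10 floxed arrays (y axis, log2), by group (x axis); points are arrays and bars are group means (n = 5 each). FADD IEC-KO arrays lie between 0.05 and 0.26 in series 1-30 and between 0.03 and 0.19 in series 86-124, Fadd fl/fl arrays between -0.04 and 0.12 and Casp8 fl/fl arrays between -0.14 and 0.01.

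Summed up by array as the median deviation of the 65 members from the mean of the 10 floxed arrays, the FADD IEC-KO (1-30) arrays lay between 0.05 and 0.26 (mean 0.15 ± 0.08, SD, n = 5), and the Fadd fl/fl arrays between -0.04 and 0.12 (mean 0.03 ± 0.06, SD, n = 5), so the groups overlapped. FADD IEC-KO (86-124) lay between 0.03 and 0.19 (mean 0.12 ± 0.07) and Casp8 fl/fl between -0.14 and 0.01 (mean -0.03 ± 0.06), without overlap. Within FADD IEC-KO (1-30), replicate 22, with the highest neutrophil markers, had the lowest chain value, 0.05. In FADD IEC-KO (86-124), replicate 117, with the highest neutrophil markers of its group, had 0.18, close to the highest value of 0.19. After group means were removed, the median correlation over the 2080 pairs of members across the 50 arrays was 0.28, within complexes 0.28 (820 pairs) and across them 0.28 (1260 pairs). The median with the other members ran from -0.13 for Cox8c to 0.44 for Cox6b1, with Ndufa12 at -0.04. This is a description of arrays that share labelling and scaling, and no value over pairs of other genes was computed.

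The co-deletions were set against the single deletion they add to. In FADD IEC-KO Zbp1 -/- against FADD IEC-KO (1-30), 3 members rose and none fell, or 4.62%, beside 5.61% of all genes that rose and 5.14% that fell, with a median log2 difference of 0.02. Ndufb3 had log2 signals of 7.55, 7.59, 7.56, 7.58 and 7.52 in FADD IEC-KO Zbp1 -/-, against 7.30, 7.05, 7.39, 7.17 and 7.10 in FADD IEC-KO (1-30). The groups did not overlap, and the co-deletion arrays were close to each other (log2 difference 0.36, adjusted p = 0.0142, limma). Cox6a2, the heart and skeletal muscle form of subunit 6a, rose by a log2 difference of 0.27 (adjusted p = 0.0401), and Ndufb5, a membrane arm subunit, by 0.20 (adjusted p = 0.0492), both with overlap. Without FADD IEC-KO replicate 22, and also without replicates 22 and 23 together, none of the 65 passed, and without replicate 24 there were 5. In the same comparison 13 of 14 smooth muscle markers rose and all 8 neutrophil markers fell. Of 8 colonocyte markers 2 rose and 1 fell. Markers also rose for fibroblasts (2 of 5), endothelium (1 of 5), pericytes (1 of 4) and neurons and glia (3 of 4). They fell for T cells (2 of 5), B and plasma cells (2 of 5) and macrophages (1 of 7). The part of these markers in the result was not tested.

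In FADD IEC-KO Mlkl -/- against the same FADD IEC-KO (1-30) arrays, Cox6a2 rose and Ndufa11 fell, or 1.54% each, beside 2.91% and 2.93% of all genes. Cox6a2 had log2 signals of 6.55, 6.83, 6.67, 6.48 and 6.43 in FADD IEC-KO Mlkl -/-, against 6.28, 6.35, 6.30, 6.33 and 6.06 in FADD IEC-KO (1-30). No array overlapped (log2 difference 0.33, adjusted p = 0.018, limma). Ndufa11 had a log2 difference of -0.28 (adjusted p = 0.0499), and its call was lost in 7 of 10 refits without 1 array. By direction 48 of the 65 members lay below 0, 31 of them in complex I, where the median log2 difference was -0.12, beside 0.01 over all genes, and at an unadjusted p under 0.05 there were 2 members above and 18 below, beside 20.7% of all genes. Without FADD IEC-KO replicate 21 there were 7 members past the threshold, without replicate 23 there was 1, and without replicates 22 and 23 there was none. All 14 smooth muscle markers rose and 6 of 8 neutrophil markers fell. Of the other lists, 2 of 8 colonocyte and 1 of 5 fibroblast markers rose. Macrophage markers fell for 3 of 7 and B and plasma cell markers for 1 of 5. Their part in the result was not tested.

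In FADD IEC-KO RIPK3 IEC-KO against FADD IEC-KO (86-124), Cox7a1 rose and Ndufs7 fell, or 1.54% each, beside 0.159% and 0.595% of all genes. Ndufs7 had log2 signals of 8.58, 8.54, 8.50, 8.74 and 8.70 in the FADD IEC-KO RIPK3 IEC-KO arrays, against 8.96, 8.93, 8.81, 9.25 and 9.06 in FADD IEC-KO (86-124), without overlap (log2 difference -0.39, adjusted p = 0.0409, limma). Cox7a1, the heart and skeletal muscle form of subunit 7a, had 8.44, 8.49, 8.38, 8.55 and 8.55 in the FADD IEC-KO RIPK3 IEC-KO arrays, against 8.16, 8.07, 8.10, 8.22 and 7.67 in FADD IEC-KO (86-124), without overlap (log2 difference 0.44, adjusted p = 0.044). Without FADD IEC-KO replicate 124, or without 117 and 124 together, neither gene passed. All 14 smooth muscle markers lay above 0 without passing (median log2 difference 0.53), and 1 of 7 macrophage markers fell. In CASP8 IEC-KO Mlkl -/- against CASP8 IEC-KO (1-30) limma called no member, beside 0.421% of all genes, and at an unadjusted p under 0.05 it called 7 of 65, beside 13.1% of all genes. The median log2 difference was -0.01. The effect of Mlkl -/- did not differ past the threshold between CASP8 IEC-KO and FADD IEC-KO for any member (0.0154% of all genes; limma), with 8 of 65 at an unadjusted p under 0.05, beside 11% of all genes.

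Set against the floxed control instead, FADD IEC-KO Zbp1 -/- had 3 members that rose, or 4.62%, beside 0.498% of all genes, and none that fell, beside 0.575%. The median log2 difference was 0.14, beside -0.0051 over all genes, and 59 of the 65 lay above 0. Ndufb5 had log2 signals of 9.44, 9.45, 9.41, 9.53 and 9.39 in FADD IEC-KO Zbp1 -/-, against 9.19, 9.12, 9.10, 9.19 and 9.14 in Fadd fl/fl. The groups did not overlap (log2 difference 0.29, adjusted p = 0.02, limma). Cox7b rose by 0.25 (adjusted p = 0.0371) and Ndufa12 by 0.23 (adjusted p = 0.0232, no overlap), and without Fadd fl/fl replicate 28 none of the 3 passed. No smooth muscle or neutrophil marker passed in this comparison, with median log2 differences of -0.16 and 0.15.

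No member passed in FADD IEC-KO Mlkl -/- against Fadd fl/fl (0.159% of all genes; limma), in FADD IEC-KO RIPK3 IEC-KO against Casp8 fl/fl (0.0769%) or in CASP8 IEC-KO Mlkl -/- against Fadd fl/fl (0.0462%). At an unadjusted p under 0.05 these gave 8, 15 and 10 of 65 members, beside 9.38%, 10.7% and 8.19% of all genes. The median log2 differences of the members were 0.02, 0.12 and 0.06, in that order. The 1-30 comparisons of the co-deletions use the same 5 Fadd fl/fl arrays as those of the single deletions, and those of arrays 86-124 the same 5 Casp8 fl/fl arrays.

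Complex IV has several subunits that come in a form of most tissues and a form of heart, skeletal muscle or testis. The differences of FADD IEC-KO (1-30) minus Fadd fl/fl were 0.02 for Cox6a1 and -0.20 for Cox6a2 (log2, adjusted p = 0.919 and 0.11), 0.37 for Cox7a2 and -0.10 for Cox7a1 (the first past the threshold, the second with an adjusted p of 0.609), 0.26 for Cox7b and -0.19 for Cox7b2 (adjusted p = 0.219 for the second), and 0.04 for Cox8a and -0.27 for Cox8b (adjusted p = 0.787 and 0.274). In FADD IEC-KO (86-124) minus Casp8 fl/fl the log2 differences were 0.37 for Cox6a1 and -0.07 for Cox6a2, 0.23 for Cox7a2 and -0.21 for Cox7a1, 0.18 for Cox7b and -0.34 for Cox7b2, and 0.36 for Cox8a and -0.07 for Cox8b, of which Cox6a1, Cox8a and Cox7b2 passed. For these 4 subunits the form of most tissues had the higher difference in both comparisons, and whether the forms of a pair differ was not tested. The fifth pair ran the other way in arrays 1-30: Cox6b2, the testis form, had log2 differences of 0.30 (adjusted p = 0.0953) and 0.10 (adjusted p = 0.655) in the same comparisons, where Cox6b1 had 0.09 (adjusted p = 0.517) and 0.32. Cox6b2 averaged a log2 signal of 5.73, also below the array medians. Ndufa4 and Ndufa4l2, a relative known to be induced at low oxygen, stayed within a log2 difference of 0.10 in both comparisons and did not pass.

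**Figure D4:**
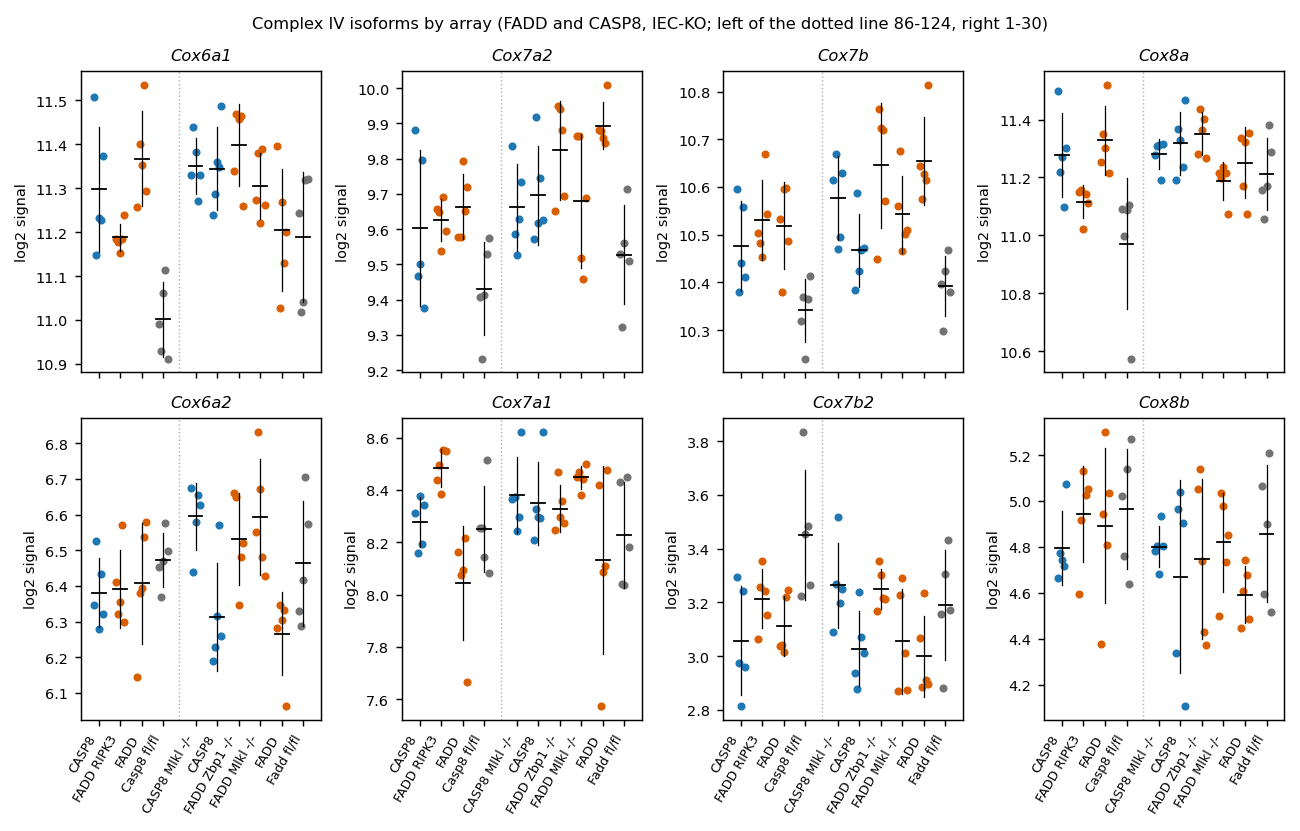
Log2 signal (y axis) on every array, by group (x axis), of the complex IV forms found in most tissues (top row) and their relatives (bottom row), with group means and 1 SD (n = 5 each). Orange marks groups with FADD IEC-KO, blue CASP8 IEC-KO and grey the floxed controls; axes do not start at 0 and levels are not comparable between genes. Cox7a1 in FADD IEC-KO (86-124) holds 1 low array, replicate 124 at 7.67, and Cox8a in Casp8 fl/fl holds replicate 119 at 10.57.

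Genes that act beside complexes I to IV were counted in the FADD comparisons, from lists drawn up with earlier results of these data known. Beside these counts, 8.59% of all genes rose and 10.1% fell in arrays 1-30, and 6.80% rose and 4.25% fell in arrays 86-124. Of 6 chain subunits that the symbol rule leaves out, Cycs (cytochrome c, the carrier between complexes III and IV) rose by a log2 difference of 0.60 in arrays 1-30 (adjusted p = 0.000325) and 0.39 in arrays 86-124 (adjusted p = 0.0224). Cyc1, the cytochrome c1 of complex III, rose by 0.36 in arrays 1-30 (adjusted p = 0.0195) and had 0.28 in arrays 86-124 (adjusted p = 0.0898; limma). Of 17 ATP synthase genes, 5 rose in arrays 1-30 and 6 in arrays 86-124, none fell, and the median log2 difference was 0.14 in both. Atp5g1, which encodes the rotating c subunit, rose by 0.38 (adjusted p = 0.0034) and 0.69 (adjusted p = 5.51e-06).

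Of 76 mitochondrial ribosomal protein genes 14 rose and none fell in arrays 1-30 (median log2 difference 0.13), and 24 rose and 1 fell in arrays 86-124 (0.19). Of all genes, 8.59% rose and 10.1% fell in arrays 1-30, and 6.80% rose and 4.25% fell in arrays 86-124. Of 44 assembly factors of the chain, 2 rose and none fell in arrays 1-30 (median -0.01) and 5 rose and 1 fell in arrays 86-124 (0.05). Among them Ndufaf4, an assembly factor of complex I, rose by a log2 difference of 0.50 in arrays 1-30 (adjusted p = 0.00502) and had 0.06 in arrays 86-124 (adjusted p = 0.805), while Higd2a, a factor of complex IV and supercomplex assembly, had -0.01 (adjusted p = 0.96) in arrays 1-30 and rose by 0.59 in arrays 86-124 (adjusted p = 0.000601). Of 15 genes of the outer membrane and protein import, 6 rose and 1 fell in arrays 1-30 and 5 rose in arrays 86-124. Tomm40, the import channel, rose by 0.54 (adjusted p = 0.000322) and 0.66 (adjusted p = 3.76e-05).

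Of 18 citric acid cycle and pyruvate dehydrogenase genes, none rose and 1 fell in arrays 1-30, and 1 rose in arrays 86-124, Mdh2 (malate dehydrogenase) by a log2 difference of 0.45 (adjusted p = 0.00107). Of 18 glycolysis genes, 8 rose and 2 fell in arrays 1-30 and 9 rose in arrays 86-124, with Pgk1 (phosphoglycerate kinase) at log2 differences of 0.56 (adjusted p = 0.000291) and 0.39 (adjusted p = 0.00999). Of 20 regulators of mitochondrial biogenesis, 1 rose and 9 fell in arrays 1-30, and 1 rose and none fell in arrays 86-124. Ppargc1a, the coactivator that drives chain genes in many tissues, fell by 1.00 on the log2 scale in arrays 1-30 (adjusted p = 0.000282) and had -0.17 in arrays 86-124 (adjusted p = 0.599). Nrf1 rose in arrays 86-124 by 0.25 (adjusted p = 0.0299) and had 0.11 in arrays 1-30 (adjusted p = 0.347; limma). Of all genes, 8.59% rose and 10.1% fell in arrays 1-30, and 6.80% rose and 4.25% fell in arrays 86-124. The citric acid cycle genes and the regulators rose no more often than all genes in either series. No list was tested as a set.

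**Figure D5:**
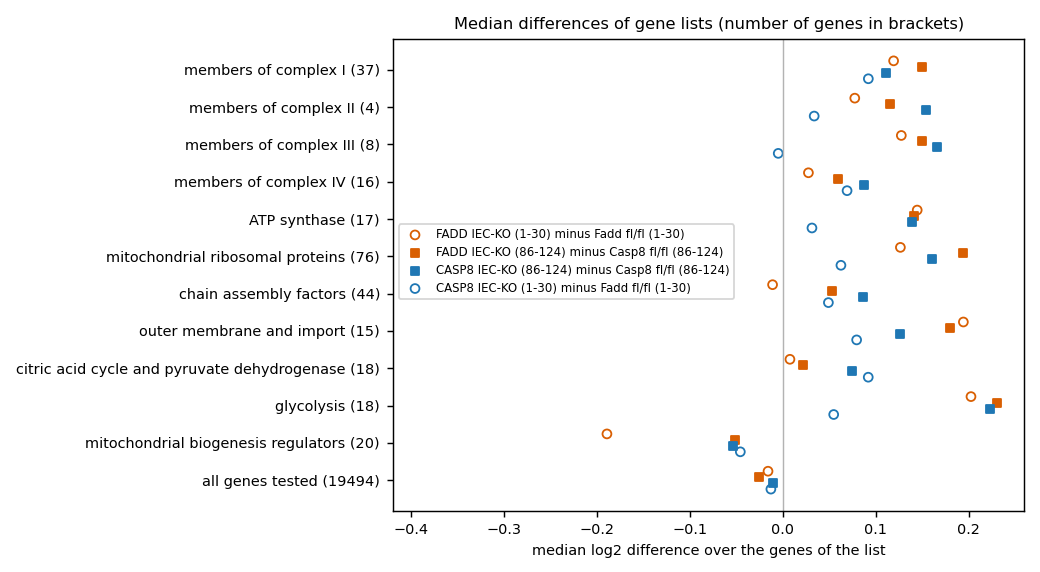
Median log2 difference (x axis) over the genes of each list (y axis, number of genes in brackets) in 4 comparisons of knockout minus floxed colons; orange marks FADD IEC-KO and blue CASP8 IEC-KO, open circles arrays 1-30 and filled squares arrays 86-124. Complex I lies at 0.12 and 0.15 in the FADD comparisons and at 0.11 and 0.09 in those of CASP8 (arrays 86-124 and 1-30), while the biogenesis regulators lie at -0.19 in FADD IEC-KO (1-30).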

How the data were processed

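Total RNA of each colon sample (100 ng) was labelled with biotin and hybridised to 1 array, per the labels' protocols. Each deposited value is the log2 signal of a probe set on an array, made by the authors with Expression Console and Transcriptome Analysis Console, per the submitters' processing notes. The labels used here name neither the algorithm nor its background correction or versions. All 50 arrays share nearly 1 distribution (medians 6.41 to 6.47, largest SD of a quantile between arrays 0.0474), and no detection calls were given, so dim genes have no known floor.

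Of 22142 probe sets, 19527 had 1 gene symbol in the platform table and 2615 had none. Where a symbol had several, the probe set with the highest mean was kept, which dropped 33 and left 19494 genes. The 10 groups of 5 arrays were fitted together with limma 3.58.1 (R 4.3.3), 1 mean per group and 40 residual degrees of freedom, with moderated variances and Benjamini-Hochberg adjustment over all genes. A call is an adjusted p under 0.05. Precision is limited by having 5 arrays a group. The labels do not say whether samples of a group came from separate animals. The p-values therefore set group differences against the spread between these samples within groups, which may be technical. Other normalizations, filters, variance models, a term for sex, other controls and fewer arrays were tried as alternatives. Sex was not read from a label but inferred from the mean signal of Kdm5d, Eif2s3y and Uty. A split at the middle of its range put 25 arrays above and 25 below.

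Members and gene lists were chosen with earlier results of these data known. Named are, per comparison, up to 6 members that rose and 6 that fell, by size of difference, the highest and lowest member of each complex in the main comparisons, core redox subunits and isoform pairs, the targeted genes, and up to 3 genes of each list by adjusted p. The other members past the threshold, and a few with groups that did not overlap, were added once values were seen. Promoter sequences are from RefSeq (GRCm38.p6).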

Additional observations from a re-analysis of the deposited data

Results flagged for a closer look

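Single arrays stood apart from the other 4 of their group (the gap to the nearest array over the group's range was above Dixon's critical value of 0.71) in 19 of 320 tests of members described in the text, where chance alone gives about 1 in 20. Replicate 25 of FADD IEC-KO (1-30) stood apart for 3 genes, with log2 signals of 6.06 for Cox6a2 (others 6.28 to 6.35), 10.01 for Cox7a2 (others 9.84 to 9.88) and 10.81 for Cox7b (others 10.58 to 10.64). Replicate 15 of FADD IEC-KO Mlkl -/- stood low for 3 genes, with 7.06 for Ndufb3 (others 7.29 to 7.34), 11.07 for Cox8a (others 11.20 to 11.24) and 9.39 for Uqcrc1 (others 9.46 to 9.49). Ndufs8 read 8.94 in Casp8 fl/fl (86-124) replicate 91, below the others at 9.12 to 9.17. In FADD IEC-KO RIPK3 IEC-KO (86-124) replicate 113, Cox5a read 10.38, above the others at 10.19 to 10.22. Cox7a1 read 7.67 in FADD IEC-KO (86-124) replicate 124, below the others at 8.07 to 8.22. In Casp8 fl/fl (86-124) replicate 119, Cox8a read 10.57, below the others at 11.00 to 11.10. Cox8b read 5.08 in CASP8 IEC-KO (86-124) replicate 108, above the others at 4.66 to 4.77. In FADD IEC-KO (86-124) replicate 95, Ndufv2 read 9.60, below the others at 9.79 to 9.84. Ndufv2 read 9.90 in FADD IEC-KO Zbp1 -/- (1-30) replicate 3, above the others at 9.76 to 9.80. In Casp8 fl/fl (86-124) replicate 105, Ndufa3 read 10.67, above the others at 10.25 to 10.37. Ndufa3 read 10.98 in CASP8 IEC-KO (1-30) replicate 20, above the others at 10.53 to 10.63. In CASP8 IEC-KO Mlkl -/- (1-30) replicate 9, Ndufa3 read 10.42, below the others at 10.60 to 10.65. Cox6b1 read 10.77 in CASP8 IEC-KO Mlkl -/- (1-30) replicate 6, above the others at 10.44 to 10.51. In CASP8 IEC-KO (86-124) replicate 87, Uqcr10 read 9.56, above the others at 9.23 to 9.29. Ndufb5 read 9.38 in CASP8 IEC-KO (1-30) replicate 17, above the others at 9.19 to 9.24.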

How the results depend on the processing

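No paired analysis was run because the labels used here give no pairing. The replicate numbers are the title numbers, which differ for every sample. Of 942 alternatives to 47 single-gene results, 681 kept direction and call, 260 kept the direction and lost the call, and 1 reversed: Ndufs7 in CASP8 IEC-KO (86-124), with Fadd fl/fl as the control (-0.0092). Counts of members past the threshold moved by over 1.5 times as follows, and the causes were not tested. FADD IEC-KO (1-30) against Fadd fl/fl gave 5 with only the arrays compared and 6 without replicates 22 and 23. FADD IEC-KO (86-124) against Casp8 fl/fl gave 5 with only the arrays compared and 3 with Fadd fl/fl as the control. Pooling both series with a series term gave 11, but that fit set FADD IEC-KO against Fadd fl/fl, so its control changed too. CASP8 IEC-KO (86-124) against Casp8 fl/fl gave 2 after quantile normalization, and 0 with array weights, with only the arrays compared, or with Fadd fl/fl as the control. CASP8 IEC-KO (1-30) against Fadd fl/fl gave 1 without the dimmest 40% of genes and 1 with array weights. Pooling both series gave 6 in a fit of CASP8 IEC-KO against Casp8 fl/fl, so the control changed here as well. FADD IEC-KO Zbp1 -/- against FADD IEC-KO (1-30) gave 5 without dim genes, 5 with trend and robust moderation, 1 with array weights, and 0 with only the arrays compared or without replicates 22 and 23. FADD IEC-KO Mlkl -/- against FADD IEC-KO (1-30) gave 1 after quantile normalization, 5 with centred arrays, 6 without dim genes, 1 with a covariate for sex, and 0 with only the arrays compared or without replicates 22 and 23. FADD IEC-KO RIPK3 IEC-KO against FADD IEC-KO (86-124) gave 1 with centred arrays, 1 with a covariate for sex, and 0 with only the arrays compared or without replicates 117 and 124. FADD IEC-KO Zbp1 -/- against Fadd fl/fl gave 5 after quantile normalization, 7 without dim genes, 5 with trend and robust moderation, 12 with array weights and 0 with only the arrays compared. With array weights, FADD IEC-KO Mlkl -/- against Fadd fl/fl gave 2 and CASP8 IEC-KO Mlkl -/- against Fadd fl/fl gave 1. FADD IEC-KO (86-124) against FADD IEC-KO (1-30) gave 1 after quantile normalization, 1 without dim genes, 1 with trend and robust moderation and 1 without replicates 117 and 124. The difference of the FADD IEC-KO effect between the series gave 1 without dim genes, 1 with trend and robust moderation and 2 without replicates 117 and 124.

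Leaving out 1 array at a time, the counts ran from 10 (without Fadd fl/fl 27) to 16 for FADD IEC-KO (1-30), from 12 (without Casp8 fl/fl 91) to 19 for FADD IEC-KO (86-124), from 0 (without CASP8 IEC-KO 87) to 11 (without 108) for CASP8 IEC-KO (86-124), and from 0 to 0 for CASP8 IEC-KO (1-30). They ran from 0 (without FADD IEC-KO 22) to 5 (without 24) for FADD IEC-KO Zbp1 -/- and from 1 (without 23) to 7 (without 21) for FADD IEC-KO Mlkl -/- against FADD IEC-KO. For FADD IEC-KO RIPK3 IEC-KO against FADD IEC-KO they ran from 0 (without 124) to 2, and for FADD IEC-KO Zbp1 -/- against Fadd fl/fl from 0 (without Fadd fl/fl 28) to 4. They ran from 0 to 1 for CASP8 IEC-KO against FADD IEC-KO, for FADD IEC-KO between the series and for the difference of its effect, with the 1 found without FADD IEC-KO (1-30) replicate 21, again without replicate 21, and without Fadd fl/fl replicate 26. The settings that leave out FADD IEC-KO 117 and 124, or that only swap the control of arrays 86-124 to Fadd fl/fl, were chosen after seeing the data.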
